A study of Mus musculus with 4 samples.

Results

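Expression in 3T3-L1 cells given an siRNA against Aof2 was compared with that in cells given a control siRNA, gene by gene. Aof2 is the former symbol of Kdm1a, which encodes the histone demethylase LSD1, and the comparison addresses which transcripts differ when less of it is present early in fat cell differentiation. 3T3-L1 is an established mouse embryonic fibroblast line whose confluent cells turn into adipocytes under a hormone cocktail. Each of 4 cultures went onto 1 Affymetrix 3' expression array: control siRNA (siGL3), aof2 siRNA, rfk siRNA, which targets riboflavin kinase, and tranylcypromine, a drug that blocks monoamine oxidases and LSD1. In the siRNA cultures, preadipocytes were transfected 24 h before insulin, dexamethasone and isobutylmethylxanthine were added, and all cultures were harvested 24 h after that addition. All were kept in 25 mM glucose and 10% serum. For the tranylcypromine culture no siRNA is mentioned in the labels, and the drug was added with the cocktail. Of 18194 genes named on the array, 10788 were compared: those whose brightest probe set had a mean log2 signal over the 4 arrays that reached the array-wide median, which is a signal of 50.9. The other 7406 genes lay below that bound. Values are MAS5 signals, a linear brightness per probe set. A log2 difference is always aof2 siRNA minus control siRNA unless another array is named. With 1 array a side there is no test, SD or SE, and "above" and "below" describe these 2 arrays only.

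LSD1 removes methyl groups from lysine 4 of histone H3 in a reaction that uses flavin adenine dinucleotide. It works mostly as a corepressor, held together with the deacetylases HDAC1 and HDAC2 by the scaffold protein CoREST, and it is recruited to genes by DNA-binding repressors of the SNAG family and others. In adipocytes it has been studied as a link between flavin supply and the genes of fuel use. Loss of a corepressor can leave transcripts higher, while other transcripts can differ as later effects, and an expression array cannot tell these apart.

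The siRNA target was checked first. Kdm1a had a signal of 3494 with control siRNA, 681 with aof2 siRNA, 3471 with rfk siRNA and 3054 with tranylcypromine. The aof2 siRNA array stood alone, at 19.5% of control, and the gene's other probe set gave 17.3%. Among bright genes, those whose mean log2 signal reached a signal of 414, Kdm1a lay furthest below control.

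The starts of 8 genes named in the results below are shown: the gene furthest above control among those whose brighter array reached a signal of 414, an aldehyde dehydrogenase and a lipase gene that lay above it, then a signalling, a chemokine, a replication and a pair of hypoxia-type genes that lay below it. Each window runs from 250 bases before to 50 bases after the annotated start, 5′ to 3′ on the gene's strand, from RefSeq on GRCm38.p6. The first 3 windows have every CG dinucleotide in capitals. They lie at chr14:8317558-8317857 (minus strand) for Fam107a, chr19:20727507-20727806 (minus) for Aldh1a7 and chr7:141454938-141455237 (plus) for Pnpla2.
Fam107a: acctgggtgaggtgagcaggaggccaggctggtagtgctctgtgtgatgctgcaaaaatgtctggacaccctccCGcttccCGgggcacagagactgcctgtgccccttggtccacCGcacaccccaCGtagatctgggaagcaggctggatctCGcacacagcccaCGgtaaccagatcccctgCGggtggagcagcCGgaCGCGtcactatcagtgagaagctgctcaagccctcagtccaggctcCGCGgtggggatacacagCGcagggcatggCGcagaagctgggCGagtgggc
Aldh1a7: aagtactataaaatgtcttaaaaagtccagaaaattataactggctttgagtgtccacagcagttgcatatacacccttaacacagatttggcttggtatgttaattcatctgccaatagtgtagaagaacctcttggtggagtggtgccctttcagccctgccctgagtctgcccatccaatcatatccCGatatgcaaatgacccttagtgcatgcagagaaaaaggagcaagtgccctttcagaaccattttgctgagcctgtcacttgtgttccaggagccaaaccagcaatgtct
Pnpla2: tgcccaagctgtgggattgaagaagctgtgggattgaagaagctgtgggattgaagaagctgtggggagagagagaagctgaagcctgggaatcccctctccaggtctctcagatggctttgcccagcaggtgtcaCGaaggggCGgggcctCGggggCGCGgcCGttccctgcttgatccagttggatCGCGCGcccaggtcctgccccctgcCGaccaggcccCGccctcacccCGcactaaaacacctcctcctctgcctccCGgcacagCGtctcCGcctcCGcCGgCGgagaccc
Fam107a held 15 CG dinucleotides, Pnpla2 18 and Aldh1a7 1, against a median of 22 over the 8778 compared genes with a window. In the other 5 windows capitals mark a motif found on either strand: TATAAA, the TATA box, in Rgs4, GGAATTTCC, an NF-kappa-B type site, in Cxcl1, TTTCCCGC or TTTGGCGC, E2F type sites, in Cdc6, and ACGTG, the core bound by hypoxia-inducible factors, in Bnip3 and P4ha1. ACGTG is also contained in CACGTG, the E-box of clock and other helix-loop-helix factors. They lie at chr1:169747593-169747892 (minus) for Rgs4, chr5:90890995-90891294 (plus) for Cxcl1, chr11:98907901-98908200 (plus) for Cdc6, chr7:138909457-138909756 (minus) for Bnip3 and chr10:59323046-59323345 (plus) for P4ha1.
Rgs4: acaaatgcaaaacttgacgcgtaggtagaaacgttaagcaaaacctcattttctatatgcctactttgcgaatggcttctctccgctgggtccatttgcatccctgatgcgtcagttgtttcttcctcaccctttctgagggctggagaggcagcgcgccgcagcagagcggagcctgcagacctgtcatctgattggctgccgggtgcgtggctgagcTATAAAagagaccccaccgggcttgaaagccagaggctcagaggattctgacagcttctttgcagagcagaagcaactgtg
Cxcl1: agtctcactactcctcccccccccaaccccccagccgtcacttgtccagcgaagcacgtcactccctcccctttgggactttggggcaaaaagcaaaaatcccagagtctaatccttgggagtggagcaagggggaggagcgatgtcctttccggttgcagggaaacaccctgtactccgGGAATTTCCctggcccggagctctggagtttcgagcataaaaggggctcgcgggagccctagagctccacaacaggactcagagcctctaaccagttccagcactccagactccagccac
Cdc6: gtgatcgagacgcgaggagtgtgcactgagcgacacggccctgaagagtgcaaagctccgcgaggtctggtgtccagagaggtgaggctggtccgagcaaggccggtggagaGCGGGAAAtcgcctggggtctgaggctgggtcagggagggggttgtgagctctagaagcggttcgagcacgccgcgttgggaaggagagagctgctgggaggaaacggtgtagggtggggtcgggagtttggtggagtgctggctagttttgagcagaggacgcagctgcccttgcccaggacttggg
Bnip3: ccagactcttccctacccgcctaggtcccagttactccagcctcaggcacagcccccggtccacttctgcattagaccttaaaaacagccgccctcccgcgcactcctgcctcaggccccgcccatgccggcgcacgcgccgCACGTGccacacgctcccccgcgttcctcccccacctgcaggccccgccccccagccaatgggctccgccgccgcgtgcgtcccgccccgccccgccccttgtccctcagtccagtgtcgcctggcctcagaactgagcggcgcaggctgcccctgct
P4ha1: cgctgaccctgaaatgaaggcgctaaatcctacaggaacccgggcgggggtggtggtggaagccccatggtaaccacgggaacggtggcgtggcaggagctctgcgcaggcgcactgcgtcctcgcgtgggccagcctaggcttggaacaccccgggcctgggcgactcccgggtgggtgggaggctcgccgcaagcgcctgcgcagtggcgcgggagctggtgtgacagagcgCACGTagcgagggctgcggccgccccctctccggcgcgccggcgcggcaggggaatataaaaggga
The Bnip3 capitals are CACGTG, which holds ACGTG once on each strand. In Cdc6 and P4ha1 the capitals are the motif's reverse complement. A match describes these letters and shows no bound factor.

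At least 2-fold above control were 174 of the 10788 genes, which is 1.61%, and 58, or 0.538%, were at least 2-fold below it. Among the 6873 bright genes 38 were at least 2-fold above (0.553%) and 7 below (0.102%). With a threshold of 1.5-fold, 675 genes (6.26%) were above and 311 (2.88%) below, and 205 (2.98%) and 84 (1.22%) of the bright ones. The split leaned towards higher signals at each of these thresholds, although the median difference of all compared genes was -0.004 and 49.3% of them lay above control. With each array centred on its median signal, the split at 2-fold was 134 above and 77 below, or 63.5% above in place of 75%. Its size also depended on the signal bound. With no filter on signal the split was 2016 above and 1502 below, or 57.3% above, and among bright genes alone it was 84.4% above. The bound applies to a mean over all arrays, so a gene low with control siRNA alone can reach it, as can one low with aof2 siRNA alone. How far this shaped the split was not tested. With the 3 other arrays averaged as reference in place of the control array alone, 45 genes were at least 2-fold above and 29 below. The genes just past the threshold were Krtcap3, Antxr1 and Gpd1l on the higher side, with Mturn, Syt11 and Kdr just short of it, and Cep290, Xrcc3 and Dlx1 on the lower side, with Stk36, Emb and Cdc6 just short of it.

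**Figure D1:**
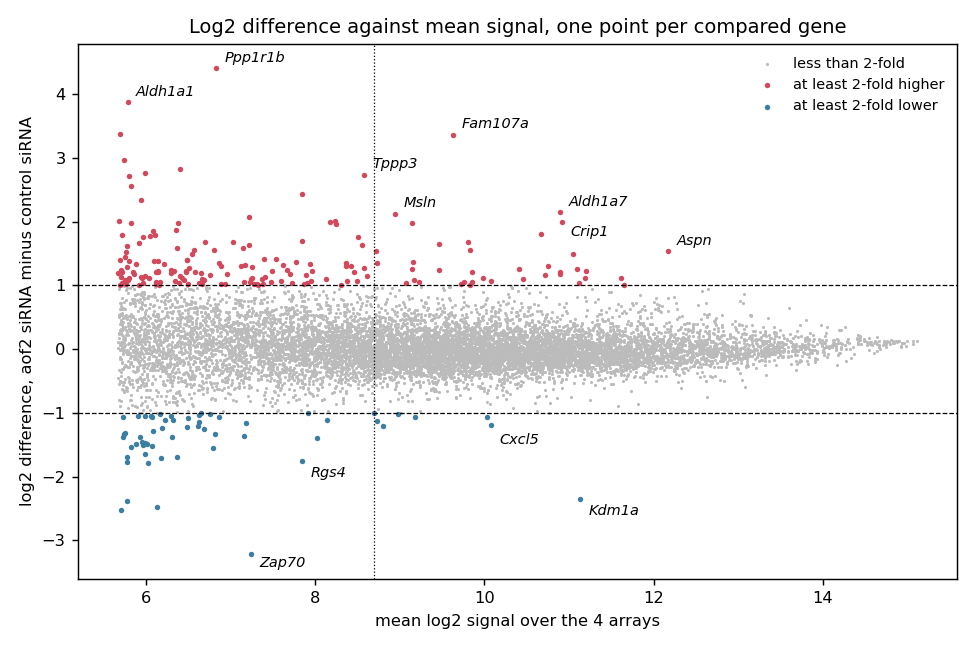
Log2 difference (aof2 siRNA minus control siRNA, vertical axis) against the mean log2 signal over the 4 arrays (horizontal axis), with 1 point for each of the 10788 compared genes. Red points are the 174 genes at least 2-fold above control and blue points the 58 at least 2-fold below it, the dashed lines mark 2-fold and the dotted line marks the bright bound (signal 414); points spread more widely to the left, where signals are low.

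The scatter depended on brightness. In the 2697 dimmest compared genes, with mean signals of 51 to 247, the central 90% of log2 differences ran from -0.69 to 0.95, and these held 118 of the 174 higher and 48 of the 58 lower genes. In the 2697 brightest the same range was -0.32 to 0.39, with 12 higher genes and 1 lower gene. In 57 of the higher and 29 of the lower genes the dimmer of the 2 signals was below the bound of 50.9, so their fold is of unreliable size. Of the higher genes, 48 had several probe sets at the bound, and in 43 of them all probe sets lay above control, in 20 by at least 2-fold. For the lower genes this was 7 and 3 of 11. Over all compared genes with several such probe sets, 52.8% had all of them on the same side of control. In these 5228 genes the differences spanned a median of 0.31, which serves below as the yardstick for measurement spread. Hybridisation controls, transcripts added at the hybridisation step, differed by -0.15 to 0.15 in 18 probe sets, and poly-A controls, spiked into the RNA at the start of labelling, lay above control in all 24 probe sets, by up to 0.87 and by a mean of 0.29, which is more than most list medians below. Their part in the results was not tested.

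The cells' identity was read from summed signals of marker lists. The 9 fibroblast and preadipocyte markers summed to 73188 in the control array and 79379 in the aof2 siRNA array, and 8 of them reached the bound. Of the 6 mature adipocyte markers on the array 2 reached it, Fabp4 and Retn, and the sums were 2599 and 1457. Fabp4 alone read 2463 and 1301 and so made up most of both sums. Of the others, Retn and Cidec lay below control and Adipoq, Lep and Slc2a4 above it, all but Retn under the bound. The harvest came 24 h after induction, early in the course of differentiation. The 11 epithelial and mesothelial markers summed to 632 with control siRNA, 1608 with aof2 siRNA, 657 with rfk siRNA and 3070 with tranylcypromine, and the 3 that reached the bound were Msln, Krt19 and Epcam. Lymphocyte and erythroid markers all lay below it, and 1 of 5 endothelial and 2 of 6 macrophage markers reached it. In bulk RNA, fewer cells of a type and less RNA per cell cannot be told apart.

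Among genes whose brighter array reached 414, the one furthest above control was Fam107a, and Tppp3 came next. Fam107a, an actin-associated protein first known from tumour and stress studies, had signals of 200 with control siRNA and 2055 with aof2 siRNA, a 10.3-fold difference. With rfk siRNA it read 1003 and with tranylcypromine 947, so the aof2 siRNA array was the highest of the 4 by more than 2-fold and the control array the lowest. Its 3 probe sets gave 2.28 to 3.36. Tppp3, a tubulin-binding protein, read 117 and 783 in the control and aof2 siRNA arrays, 401 with rfk siRNA and 576 with tranylcypromine. Its difference of 2.74 rests on a single probe set. Crip1, a small LIM domain protein, read 893 and 3568, and Lims2, a focal adhesion adaptor, read 194 and 601. In the lists that hold Fam107a, Crip1 and Tppp3, differences of this size were few: of 28 compared actin and smooth muscle genes 2 were at least 2-fold above control, against 1.61% of all genes, with a median of 0.13, and of 18 tubulin and microtubule genes 10 lay below control, with a median of -0.10. For Crip1 and Lims2, the rfk siRNA array was closer to control (1121 and 288) and the tranylcypromine array closer to aof2 siRNA (3867 and 597).

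Several of the genes furthest above control are better known from epithelia and mesothelium. Msln encodes mesothelin, a surface glycoprotein of mesothelial cells, and read 194 with control siRNA, 846 with aof2 siRNA, 167 with rfk siRNA and 2150 with tranylcypromine. Slurp1, a secreted Ly6-domain protein of keratinocytes, read 82.2, 445, 91.3 and 840 in the same order. Cystm1, a small membrane protein, read 115, 458, 136 and 962. In these 3 genes the rfk siRNA signal was near control, and tranylcypromine gave the highest of the 4 signals. Krt19, a keratin of simple epithelia, read 100 and 267, and Krt15, a keratin of basal epithelial cells, read 652 and 2293, though Krt15 read 1629 with rfk siRNA. The list of epithelial and mesothelial genes had 14 compared members of 34 on the array, and 20 lay below the bound. It had a median of 0.74, with 12 above control and 8 at least 1.5-fold so, against 6.26% of all genes. The list was drawn up with Msln, Slurp1, Cystm1 and Crip1 known to be high, so its median is a description and no support. Its other members ran from -1.11 for the epithelial transcription factor gene Elf3, at 95.6 and 44.4, to 1.41 for Krt19 and for the galectin gene Lgals7, at 50.5 and 134. Krt5, a keratin of stratified epithelia, stood at -0.04. With the 3 other arrays averaged as reference, the tranylcypromine array among them, the list median was 0.38. The summed epithelial and mesothelial markers given above include Msln and Krt19 and so are not independent of the list. Without these, the other 9 markers summed to 338 with control siRNA, 495 with aof2 siRNA, 389 with rfk siRNA and 477 with tranylcypromine. Of all 11 markers 8 lay above control and 3 below it.

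**Figure D2:**
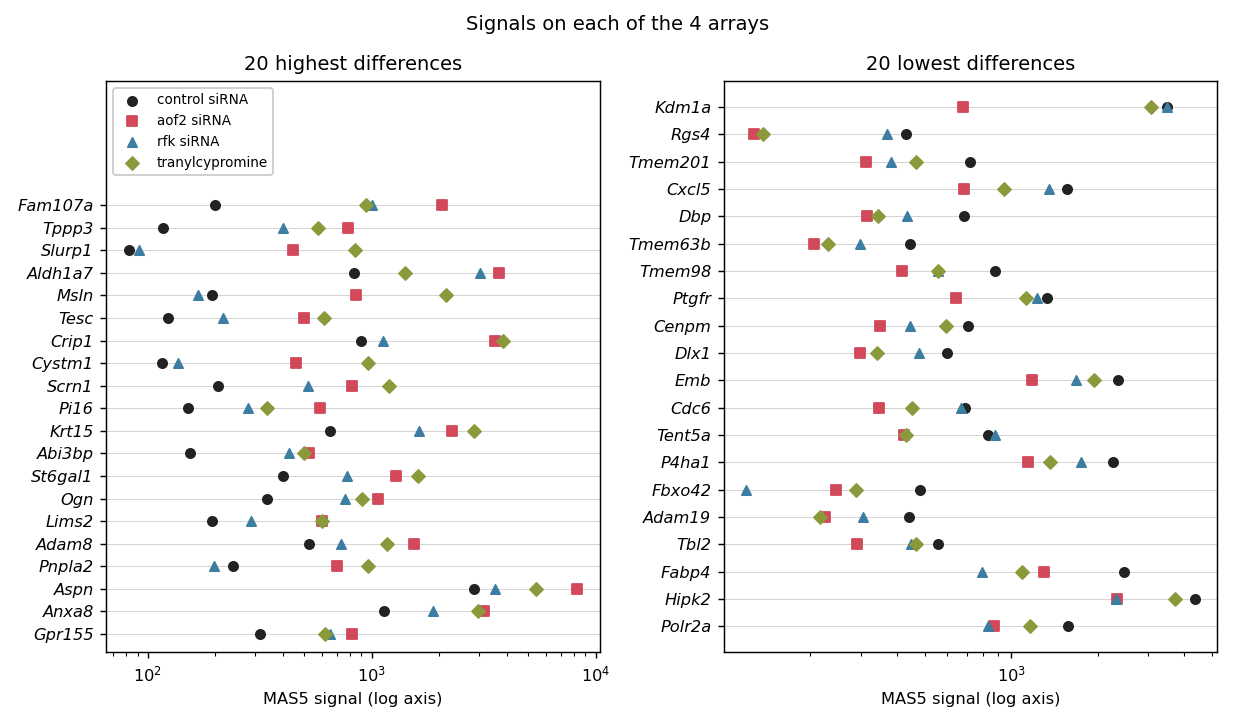
MAS5 signal (log axis) on each of the 4 arrays for the 20 genes furthest above (left) and the 20 furthest below (right) control among genes whose brighter array of the pair reached a signal of 414. Each symbol is 1 array; Fam107a at 2055 and Kdm1a at 681 are the genes in which the aof2 siRNA array lies apart from all 3 others by more than 2-fold, while for Msln and Slurp1 the tranylcypromine array is highest.

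Some aldehyde and retinoid enzymes also stood high. Aldh1a7, a cytosolic aldehyde dehydrogenase whose start is nearly free of CG dinucleotides, read 834 with control siRNA and 3708 with aof2 siRNA, which is 4.44-fold. It read 3039 with rfk siRNA and 1406 with tranylcypromine, so both siRNA arrays were high and the drug array less so. Aldh1a1, a closely related retinaldehyde dehydrogenase, read 9.66 and 142 from a control signal far below the bound, and Dhrs3, which reduces retinaldehyde back to retinol, read 17.0 and 115. The folds of both are of unreliable size for that reason, and as near-identical relatives Aldh1a1 and Aldh1a7 may share probe signal, which was not tested. Of the 16 compared genes of the list 14 lay above control, with a median of 0.33, 4 at least 1.5-fold above (6.26% of all genes) and 0 at least 1.5-fold below (2.88% of all genes). Of these 4, Aldh1a1 and Dhrs3 reached the bound only through arrays other than control. The lists were also chosen with earlier results known, so these counts are a description and no support. At its lower end stood Aldh2, the mitochondrial enzyme, at -0.02 and Rdh11, a retinol dehydrogenase, at -0.15, both within the yardstick.

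Matrix and adhesion genes lay on both sides of control. Aspn and Ogn, small leucine-rich proteoglycans that bind collagen, read 2863 and 8297, and 340 and 1064, in the control and aof2 siRNA arrays. Dcn, of the same proteoglycan family, read 1798 and 1592. Abi3bp, a matrix protein, read 155 and 523, with 429 under rfk siRNA and 499 under tranylcypromine. Of the 31 compared matrix genes 16 lay above and 15 below control, with a median of 0.04, 7 at least 1.5-fold above (all genes: 6.26%) and 3 below (all genes: 2.88%). The lower ones were P4ha1, a collagen prolyl hydroxylase, at -0.97, the matrix glycoprotein gene Tnc at -0.80 and the lysyl hydroxylase gene Plod2 at -0.78. Collagen chains were near control with a median of 0.06, from Col1a1 at -0.55 to Col8a1 at 1.85, the latter from a control signal of 31.1, below the bound. Among integrins and laminins Itga6, the laminin-binding alpha subunit, read 841 and 2069 (2000 with rfk siRNA and 2542 with tranylcypromine), while Itgb5, a vitronectin-binding beta subunit, read 549 and 368. Pi16, a secreted protein that marks fibroblast progenitors of adipose tissue, read 152, 590, 280 and 342 (control, aof2 siRNA, rfk siRNA, tranylcypromine), and was thus highest with aof2 siRNA. Adam8, a membrane metalloprotease, read 526 and 1548, and St6gal1, which adds sialic acid to surface glycans, 400 and 1282.

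Complement and host defence genes that reached the bound lay above control. All 8 compared members of this list did, with a median of 0.86, and 4 were at least 2-fold above, against 1.61% of all genes, but 9 of the 17 genes on the array lay below the bound. The list was chosen with earlier results known, so these counts are a description and no support. C1s1, a protease subunit of the first complement component, read 70.6 with control siRNA, 212 with aof2 siRNA, 210 with rfk siRNA and 127 with tranylcypromine. Masp1, a protease of the lectin pathway, read 399, 955, 522 and 518, and was high in the aof2 siRNA array alone. The inhibitors lay above control too: Cd55, which speeds decay of the C3 convertases, read 241 and 504, and Serping1, the C1 inhibitor, read 53.3 and 110. Lcn2, a siderophore-binding acute phase protein, was the lowest of the 8 at 0.17. With the 3 other arrays averaged as reference, the list median was 0.56.

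Surface proteins with a Ly6 fold or a GPI anchor were mostly above control, 15 of 16, against 49.3% of all genes. The list median was 0.35, with 4 at least 1.5-fold above (all genes: 6.26%) and 0 below (all genes: 2.88%). Msln and Slurp1, already named, led the list, and the other 14 ran from -0.001 for Gpc1 to 0.78 for Bst2, an interferon-inducible membrane tether, at 198 and 341. Among calcium-binding proteins, annexins and S100 proteins 14 of 17 lay above control, with a median of 0.23, and 4 were at least 1.5-fold above and 0 below. Tesc, an EF-hand protein, read 123 and 498, and Anxa8, a membrane-binding annexin, 1133 and 3176, while S100a3 stood at -0.39. Of 19 genes of Wnt signalling 18 lay above control, with a median of 0.20, and 5 were at least 1.5-fold above and 0 below. Sfrp4, a secreted Wnt antagonist, and Wnt10a, a ligand that holds back adipogenesis, differed by 1.53 and 1.38, both from control signals below 50.9. Brighter members differed less: Wnt4 read 3101 and 4998, and Dkk3 stood at -0.17. Of 13 insulin-like growth factor genes 9 lay above control, with a median of 0.30, and 3 were at least 1.5-fold above and 1 below. Igfbp3, a carrier of the growth factor, read 59.9 and 122, but 279 with tranylcypromine, and Igfbp4 read 3091 and 5403. Among BMP and TGF-beta genes the BMP antagonists Chrd (37.2 and 85.9) and Grem1 (1587 and 3456) were highest, in a list with a median of 0.10, and the activin antagonist gene Fst read 2231 and 1734. Chrd read 49.9 with rfk siRNA and 48.0 with tranylcypromine, so it reached the bound of 50.9 only through the aof2 siRNA array. Its fold is of unreliable size. The lists in this paragraph were chosen with earlier results known, so their counts are a description and no support.

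**Figure D3:**
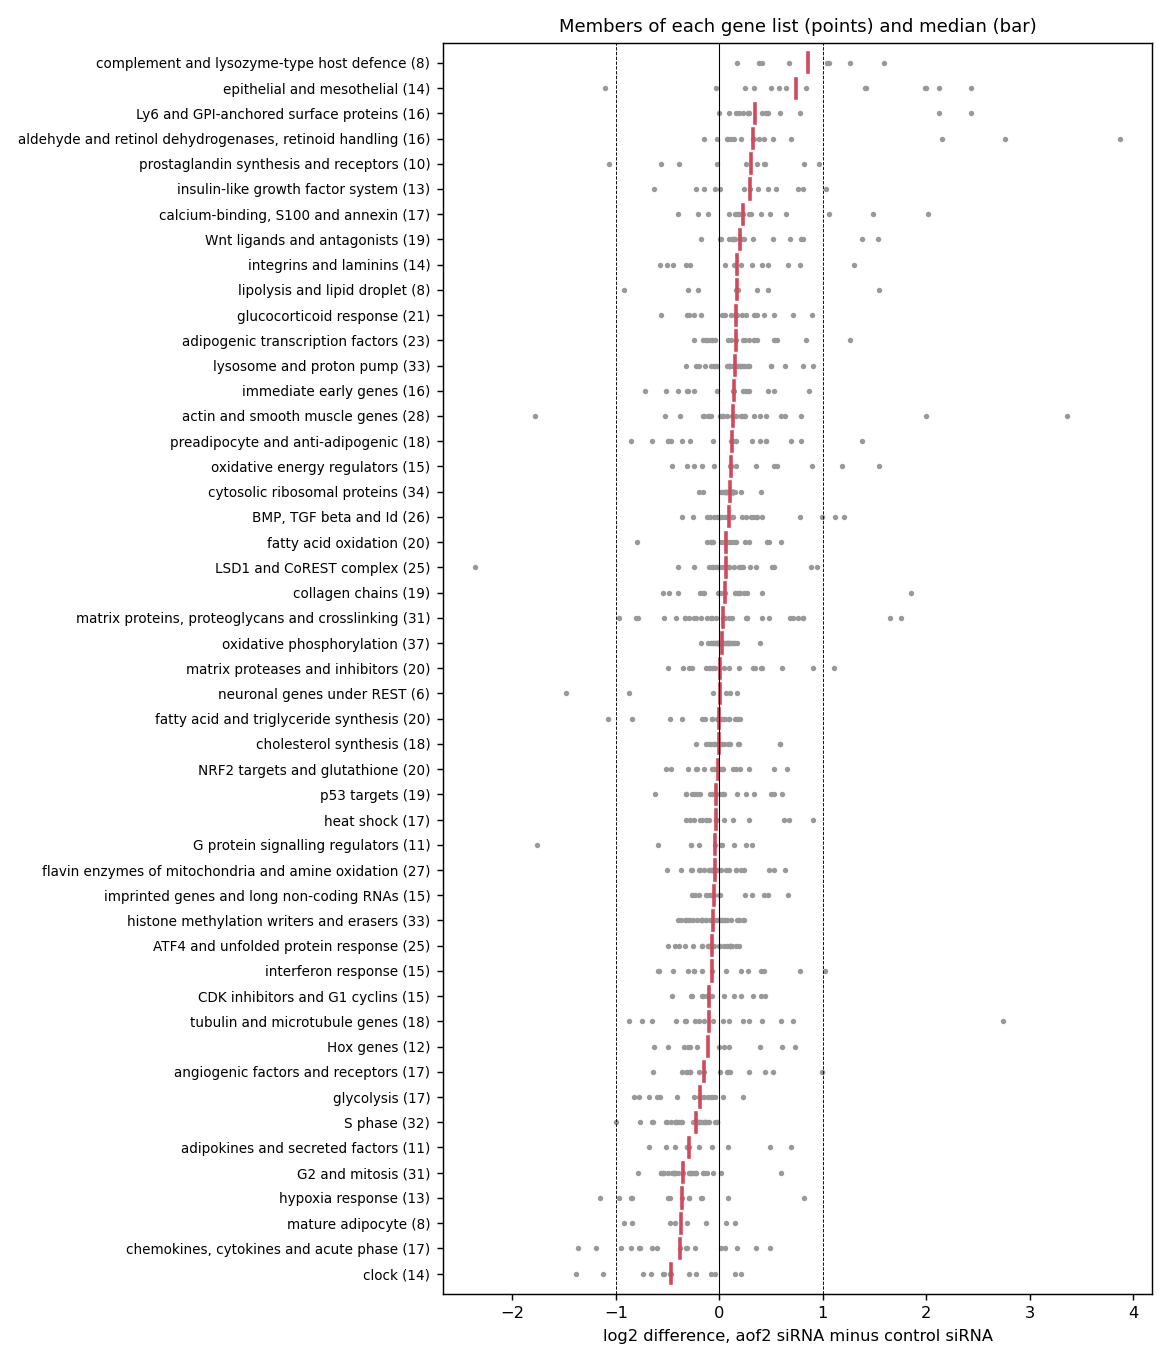
Log2 difference (aof2 siRNA minus control siRNA, horizontal axis) of the compared members of 49 gene lists, ordered by median. Each grey point is 1 gene, the red bar is the list's median, the number in brackets is how many members were compared and the dashed lines mark 2-fold; medians run from 0.86 for complement and host defence to -0.47 for clock genes.

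Over the settings tried, the complement median ran from 0.56 to 1.04, that of the aldehyde and retinoid list from 0.12 to 0.45, of the Wnt list from 0.12 to 0.24, of the hypoxia list from -0.43 to -0.28 and of the clock list from -0.54 to -0.19. The medians of the matrix, collagen, neuronal, respiratory chain and LSD1 and CoREST lists changed sign under at least 1 setting (19 of the 49 lists in all did), and no direction is read from them. Against the same control array, the medians with rfk siRNA and tranylcypromine were 0.38 and 0.41 for complement. They were 0.26 and 0.21 for the aldehyde and retinoid list and 0.28 and 0.08 for the Wnt list. For hypoxia they were -0.16 and -0.15, and for clock -0.17 and -0.26. Because the control array is shared, a trait of that array cannot be told apart from a difference with aof2 siRNA. All lists, those below included, were chosen with earlier results known, so their counts and medians are a description and no support.

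Below control, differences were fewer and smaller. After Kdm1a the lowest gene among those with a brighter signal of 414 was Rgs4, which speeds the shut-off of G protein signalling. It read 431 with control siRNA, 128 with aof2 siRNA, 369 with rfk siRNA and 137 with tranylcypromine, so the arrays split into a high and a low pair. Its 3 probe sets gave -1.76 to -0.62. Ptgfr, the receptor for prostaglandin F2 alpha, read 1337, 640, 1228 and 1124 and was low in the aof2 siRNA array alone, with 5 probe sets at -1.06 to -0.40. Emb, a chaperone of monocarboxylate transporters, read 2358 and 1181, and Hipk2, a nuclear kinase, read 4361 and 2341. Tent5a, a poly(A) polymerase, read 833, 424, 881 and 431, and so was low with aof2 siRNA and tranylcypromine. Tmem201, a protein of the inner nuclear membrane, stood at -1.20, but its other probe set gave 0.02, and those of Fbxo42 and Polr2a reached -0.03 and -0.08.

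Clock genes had the lowest list median, -0.47, with 12 of 14 below control and 4 at least 1.5-fold below, against 2.88% of all genes. Cry1, a repressor of the clock, read 390 with control siRNA, 149 with aof2 siRNA, 259 with rfk siRNA and 301 with tranylcypromine. Dbp, an output transcription factor driven by the clock, read 685, 314, 435 and 345. For both genes the aof2 siRNA array was the lowest and control the highest. The activator gene Arntl was at 0.15, and Nfil3, which opposes Dbp at shared sites, at 0.21, both within the yardstick. The list is small, and among bright members alone its median was -0.19. All cultures were harvested at 1 time point, so no phase can be read.

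Hypoxia-type genes lay below control as well: 11 of 13, with a median of -0.36 and 4 at least 1.5-fold below, against 2.88% of all genes. P4ha1 read 2253 with control siRNA, 1147 with aof2 siRNA, 1748 with rfk siRNA and 1369 with tranylcypromine. Bnip3, a mitophagy receptor of the outer mitochondrial membrane, read 5083, 2807, 3303 and 3599, and Ankrd37 read 244, 110, 184 and 89.9. In all 3 genes control was the highest array. Hif1a itself read 11518 and 10205, a difference of -0.17, and Vegfa stood at 0.09. Ndrg1 went the other way, with 287 and 505, and its 5 probe sets all lay above control, at 0.82 to 2.54. ACGTG was found in the windows of 9 of 12 compared hypoxia genes, or 75%, against 26.6% of all 8778 windows and 15.3% of the 118 windows of genes at least 2-fold above control. Such genes are known for this core, so the share describes the list and not the difference. Glycolysis genes, many of them also under hypoxia-inducible factors, had 15 of 17 members below control with a median of -0.19, from Pfkfb3, which makes the activator fructose 2,6-bisphosphate, at 114 and 64.5, and Pdk1, at 2416 and 1416, up to Hk1 at 0.23.

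**Figure D4:**
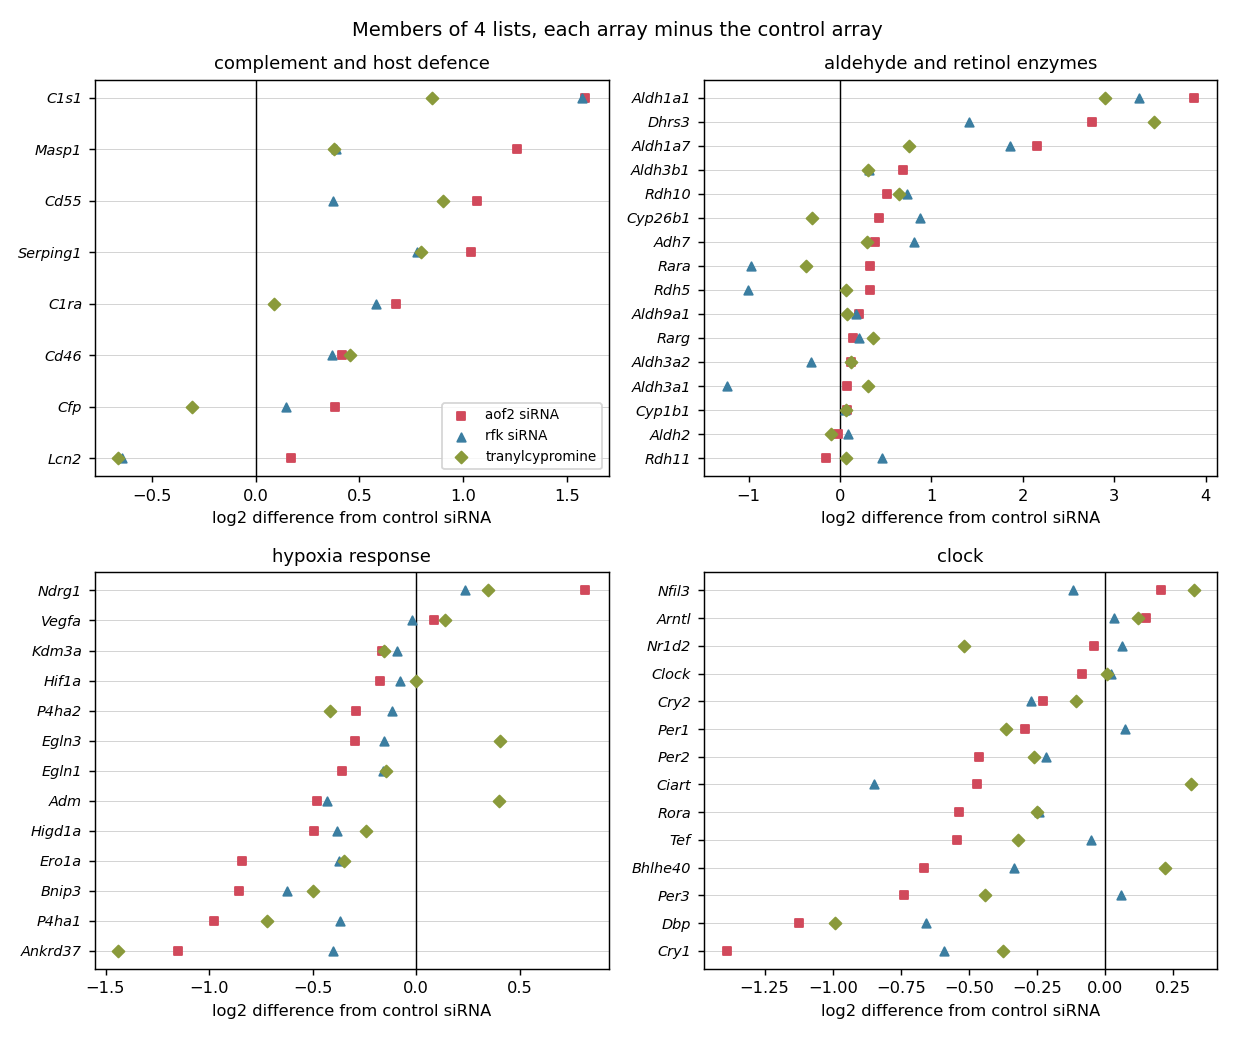
Log2 difference from the control siRNA array (horizontal axis) of every compared member of 4 gene lists for the aof2 siRNA (red squares), rfk siRNA (blue triangles) and tranylcypromine (green diamonds) arrays, which share the control array. With aof2 siRNA all 8 complement and host defence genes lie to the right of 0, 14 of 16 aldehyde and retinoid genes do, and 11 of 13 hypoxia and 12 of 14 clock genes lie to the left of it.

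Cell cycle genes were slightly lower as a block. All 32 compared S phase genes lay below control, with a median of -0.22, and 4 were at least 1.5-fold below, where 2.88% of all genes were. Cdc6, which loads the replicative helicase, read 692 with control siRNA, 347 with aof2 siRNA, 668 with rfk siRNA and 453 with tranylcypromine, and Ccne1, a cyclin of the G1 to S transition, read 888, 521, 642 and 794. The aof2 siRNA array was the lowest of the 4 for both. Rrm1 and Chaf1b stood at -0.02. E2F type sites were found in 9 of 26 S phase windows (34.6%), against 3.34% of all windows. As for the hypoxia list, this share describes the list and not the difference. Of 31 genes of G2 and mitosis 29 lay below control, where 50.7% of all genes did, with a median of -0.35. Only 1 was at least 1.5-fold below (all genes: 2.88%) and 1 at least 1.5-fold above (all genes: 6.26%). Foxm1, a transcription factor of these genes, read 276 and 160, and Aurkb, a mitotic kinase, 1293 and 876. The 3 probe sets of Foxm1 gave -0.78 to -0.105. The 2 genes above control were Nusap1, a spindle protein, at 2440 and 3679, and Cdc25b at 0.01. CCAAT was found in 80% of the windows of the G2 and mitosis list and in 39.3% of all windows. It was also found in 93.3% of the windows of cholesterol synthesis genes, whose list median was -0.001. The motif shares thus describe the lists and not the differences from control. Most of these differences were near the yardstick of 0.31, and the list medians ranged from -0.30 to -0.19 for S phase and from -0.43 to -0.26 for G2 and mitosis over the settings tried.

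Inflammatory genes formed another lower group, with 12 of 17 below control, a median of -0.38 and 8 at least 1.5-fold below, a group to which 2.88% of all genes belonged. With rfk siRNA the list median was -0.25 and with tranylcypromine, lower than with aof2 siRNA, it was -0.66. Il11, a cytokine of the IL-6 family, read 289 with control siRNA, 112 with aof2 siRNA, 107 with rfk siRNA and 121 with tranylcypromine, and control was thus the array that stood alone. Cxcl5, a neutrophil chemokine, read 1569, 686, 1356 and 943, and was lowest with aof2 siRNA. Cxcl1, of the same chemokine class, read 2296 and 1274. At the upper end were Cxcl12, a chemokine of stromal cells, at 8706 and 12229, and Ccl5 at 149 and 191. GGAATTTCC was found in 3 of 11 windows of this list (27.3%), Cxcl1 included, against 0.33% of all windows. That share, too, describes the list and not the difference. Prostaglandin genes were split: Ptgis, the prostacyclin synthase, read 899 and 1754 and its receptor gene Ptgir 54.7 and 96.2, while Ptgs2, the inducible cyclooxygenase, read 525 and 354 and Ptgfr was low.

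Fat cell genes and their regulators went different ways. Fabp4, a lipid chaperone abundant in adipocytes, read 2463 with control siRNA, 1301 with aof2 siRNA, 791 with rfk siRNA and 1093 with tranylcypromine, and with the 3 other arrays averaged as reference its difference was 0.02. Dgat2, which makes triglyceride, read 508, 284, 261 and 281. Control was the highest array for both. The 8 compared mature adipocyte genes had a median of -0.37, with 6 below control. Among 23 adipogenic transcription factors 14 lay above control, with a median of 0.16. Klf5, an early activator of Pparg, read 816, 1957, 1159 and 1820, with probe sets at 1.13 and 1.26, whereas Pparg itself read 1047 and 963. Pnpla2, the lipase that starts triglyceride breakdown and was already a subject of the study, read 240 with control siRNA, 698 with aof2 siRNA, 197 with rfk siRNA and 963 with tranylcypromine. The lipase coactivator gene Abhd5 stood at -0.30. Respiratory chain and ATP synthase genes had a median of 0.03, and 0 of 37 were 1.5-fold apart from control in either direction. Of all genes 6.26% were that far above and 2.88% below, and of bright genes 2.98% and 1.22%.

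The LSD1 and CoREST list had a median of 0.06, near control. Its 25 compared genes include Kdm1a, the 1 gene at least 2-fold below control, and 0 were at least 2-fold above. Over all genes these shares were 0.538% and 1.61%, so a list of this size would hold few such genes in any case. At least 1.5-fold above control were 2 of the 25, against 6.26% of all genes. Snai2, a SNAG-domain repressor that recruits LSD1, read 4157 with control siRNA, 7993 with aof2 siRNA, 5113 with rfk siRNA and 9793 with tranylcypromine, so this probe set was highest with tranylcypromine. Its other probe set read 1374, 2677, 1885 and 952, highest with aof2 siRNA and lowest with tranylcypromine. Against control the probe sets gave 0.94 and 0.96 for aof2 siRNA, and no direction is read for tranylcypromine. Rcor1, which encodes CoREST, read 1072 and 1546, Hdac1 read 3622 and 2741, and the related demethylase gene Kdm1b read 412 and 424. Gse1, found with the complex, stood at 0.89, but its probe sets gave -0.47 to 2.90. Among 33 other histone methylation enzymes 0 were 1.5-fold apart from control in either direction, and their median was -0.06. Of all genes 6.26% were that far above and 2.88% below, and of bright genes 2.98% and 1.22%. For a list of this size a count of 0 therefore says little. Neuronal genes kept off by REST, a repressor that works through CoREST, were mostly below the bound: 25 of 31 on the array. The 6 compared had a median of 0.003, with the secreted peptide gene Vgf at 116 and 41.4 and Tubb3, a neuronal tubulin, at 94.2 and 51.6.

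Few genes set the aof2 siRNA array apart from all others. Signals at least 2-fold above each of the 3 other arrays were seen for 5 compared genes, and Fam107a was the 1 of them whose brighter signal reached 414. The others were dim, among them Ifitm1, an interferon-induced membrane protein, at 61.4, 181, 85.7 and 84.5 (control, aof2 siRNA, rfk siRNA, tranylcypromine), and Tcaf2 at 200, 405, 198 and 184. Signals at least 2-fold below each of the 3 others were seen for 11 genes, and Kdm1a was again the 1 that reached 414. Among the dim ones Ak4, a mitochondrial adenylate kinase, read 154, 52.7, 109 and 169, and Zap70, a kinase of T cells, read 352, 37.7, 84.4 and 472. The dim genes here were picked with their values in view.

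The starts of the higher genes held fewer CG dinucleotides than those of all genes. The median was 15 in the 118 windows of genes at least 2-fold above control, 18 in the 48 windows of genes at least 2-fold below it and 22 in all 8778. Fewer than 8 were found in 31.4% of the higher and 22.9% of the lower windows, against 10.9% of all. Brightness moved with this: in the 2697 dimmest compared genes the median was 18 and the share under 8 was 21.5%. Among bright genes the median was 23, and 7.05% of their windows held fewer than 8. Of the 38 bright genes at least 2-fold above control 29 had a window, with a median of 16 and 12 under 8. At 1.5-fold the bright genes above control had a median of 20.5 over 162 windows and those below a median of 25 over 65 windows. In the dimmest group the genes at least 2-fold above control had a median of 15 and 26.6% under 8. Most gene starts in mammals rich in CG belong to widely expressed genes, and those poor in it tend to belong to tissue-restricted ones.

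**Figure D5:**
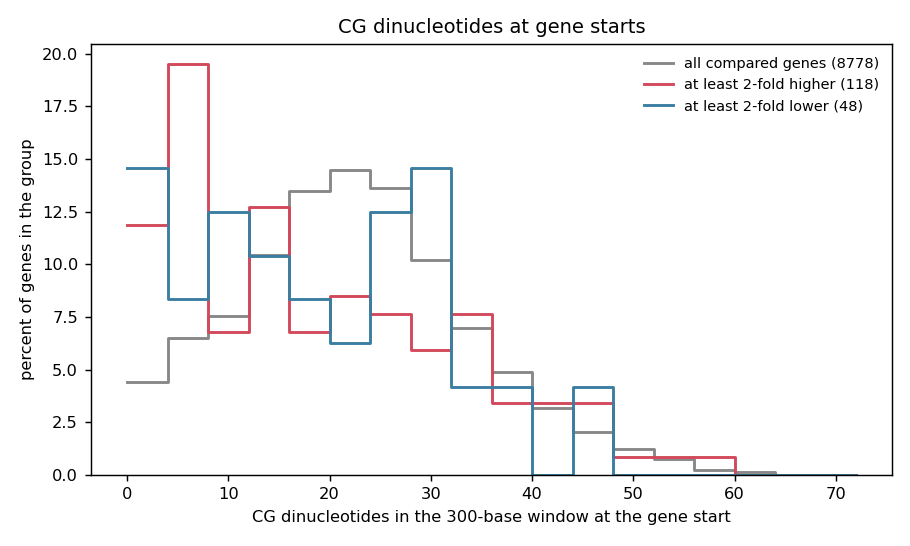
Share of genes (vertical axis, percent) by the number of CG dinucleotides in the 300-base window at the gene start (horizontal axis, in bins of 4) for all 8778 compared genes with a window, the 118 at least 2-fold above control and the 48 at least 2-fold below it. The line of the higher genes is tallest between 4 and 8, and that of all genes between 20 and 24.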

How the data were processed

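The deposited values are MAS5 signals, a linear intensity per probe set that the authors computed with the tool of that name, per the submitters' processing notes. Neither its version nor its scaling target nor detection calls are given in the sources used here. After trimming 2% of probe sets at either end, all 4 arrays had a mean deposited intensity of 500.003, so each had been scaled by itself, which hides any difference in total RNA per cell. Median signals were 53.3 to 56.2. MAS5 sets no floor, so dim signals scatter widely. Biotin-labelled RNA was made from 250 ng of total RNA, per the labels. A 2 closes the title of the control array, and its meaning is not given.

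The log2 of each signal was used, with no offset. Of 45101 probe sets, 34958 had 1 gene symbol in the platform annotation, 932 had several and named no gene, and 9211 were unnamed here; 34754 of the first were found in the RefSeq table of GRCm38.p6, which changed 0 symbols. Each gene was represented by the probe set brightest on average (mean log2 of all 4 arrays), and genes at or above the median of all probe sets were compared. Calls were differences of at least 2-fold. Bright means a mean at or above the 75th percentile of probe sets. Promoter windows were RefSeq's, the first listed per gene, and 8778 of the 10788 compared genes had 1. Motifs were searched as exact letters on both strands.

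Members, gene lists and tests were chosen with earlier results of these data known. Named were Kdm1a, the 20 highest and 20 lowest differences among genes whose brighter array of the pair reached the bright bound, the 2 highest and 2 lowest members of each list described, up to 10 bright genes apart from all 3 other arrays in each direction, and Ppargc1a, Pdk4, Slc27a1 and Pnpla2 from knowledge of the study. Any other gene was picked with its values in view. Alternatives tried were centring, quantile normalization, offsets of 16 and 64, no filter and a stricter one, other choices of probe sets, thresholds of 1.5-fold and 3-fold, and the 3 other arrays averaged as reference. The steps were tested on simulated data. With 1 array a group the number of arrays limits the precision. Python 3.11.15, NumPy 2.4.6, pandas 2.3.3 and matplotlib 3.10.9 were used.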

Additional observations from a re-analysis of the deposited data

How the results depend on the processing

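The counts of 174 higher and 58 lower genes depended on the filter and on the reference. They were 2016 and 1502 with no filter on signal, 38 and 7 with the filter at the 75th percentile, 63 and 10 with an offset of 64 (3 lower bright genes), 675 and 311 at 1.5-fold (205 and 84 bright), 42 and 12 at 3-fold (8 and 1 bright), and 45 and 29 (8 and 1 bright) with the 3 other arrays averaged as reference. Quantile normalization gave 153 and 67, or 69.5% higher. Centring, which moved the median difference from -0.004 to -0.081, gave 12 lower bright genes in place of 7. Without probe sets marked as matching several transcripts, 25 bright genes were higher in place of 38. Kdm1a stayed below control by at least 2-fold under all settings tried. Of 485 list medians under the alternatives, 481 moved by less than the yardstick of 0.31, 3 moved further and 1, the adipokine list at 0.19 with no filter against -0.29, changed sign with both values at least 0.1 from 0. The yardstick is a spread within single genes and so a loose bound for list medians, many of which are smaller than it. Counting sign changes of any size, 19 of the 49 lists crossed 0 under at least 1 setting, all from main medians smaller than 0.31. Of 2028 values of 218 named genes, 1855 moved by less than it and 171 further, 101 of these with the 3 other arrays averaged as reference. Of the genes at least 2-fold apart from control, Igfbp3 (-0.0004) and Ppargc1a (-0.0197) changed sign there. Counting differences of any size, 36 of the 218 genes changed sign under at least 1 setting, 26 of them with that reference, and 14 of the 36 had a main difference past 0.31: Fabp4 (0.02), Col1a1 (0.11), Pgf (0.31), Fas (0.05), Fst (0.06), S100a3 (0.15), Tfeb (0.04) and Dhcr7 (-0.09) with that reference, Gse1 (-0.47), Map6 (-0.05) and Cox7c (-0.97) without probe sets marked as matching several transcripts, Setd1a (0.37) with the mean of its probe sets, and the first pair. Ppargc1a read 91.0 with control siRNA, 207 with aof2 siRNA, 288 with rfk siRNA and 350 with tranylcypromine. Against control it differed by 1.18, and its 5 probe sets all lay above control, at 0.41 to 1.28. The averaged reference holds the rfk siRNA and tranylcypromine arrays, where its signal was higher than with aof2 siRNA. The causes of the other sign changes were not tested. No paired analysis was possible because each group has 1 array. Genes near the bound of 50.9 are limited by signal over background.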

Other observations

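Some gene groups not described above also lay to one side of control. Of all compared genes 49.3% lay above control. Of 33 compared lysosome and proton pump genes 25 lay above control with aof2 siRNA, with a median of 0.15, led by the cysteine protease gene Ctsk at 258 and 484. CACGTG was found in 40% of this list's windows and in 10.4% of all windows, which describes the list and not the difference. Of 34 cytosolic ribosomal protein genes 32 lay above control, with a median of 0.10. The list median was 0.12 with rfk siRNA and 0.15 with tranylcypromine. With aof2 siRNA 0 were 1.5-fold apart in either direction. Of all genes 6.26% were that far above and 2.88% below, and of bright genes 2.98% and 1.22%. Over the settings tried the aof2 siRNA median ran from 0.01 to 0.11. Of 21 glucocorticoid response genes 16 lay above control, with a median of 0.16, from the repressor gene Zbtb16 at 822 and 555 to Pdk4, a kinase that inhibits pyruvate dehydrogenase, at 2080 and 3878. Among small heat shock proteins Hspb1 read 675 and 1267 and Cryab 2857 and 4569, while the heat shock list as a whole had a median of -0.04.

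Among probe sets without a single gene symbol, 2723 reached the bound, and 55 of them (2.02%) were at least 2-fold above control and 34 (1.25%) at least 2-fold below it. The largest differences of all belonged to dim genes: Ppp1r1b, a phosphatase inhibitor, read 9.5 with control siRNA and 202 with aof2 siRNA, and the troponin gene Tnni2 read 13.5 and 142. Both were picked with their values in view.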
